A study of Mus musculus with 6 samples.

Results

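The mesothelial cell genes are 5 markers of the flat cell layer that covers the lung surface as visceral pleura, namely Upk3b, Upk1b, Lrrn4, Msln and Wt1. They were taken by symbol from the mRNA count table, and all 5 were present among its 17973 genes. The libraries were made from whole-lung RNA of C57BL/6 mice, 3 from silicosis lungs (N129, N136 and N138) and 3 from control lungs (C7, C8 and C9). Silicosis lungs had been given silica once through the trachea, 8 mg suspended in 40 µL of saline, and lungs were frozen at 90 days. Control lungs had sterile saline, according to the series text. The labels name no genetic change or age. They also leave unsaid whether replicate libraries are separate animals, so the p-values cover library-to-library spread, which may be technical.

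Mesothelial cells line the pleural cavity, secrete the lubricant fluid between lung and chest wall, and descend from embryonic mesoderm although they carry keratins. Inhaled mineral particles can reach the pleura, and mesothelial cells are known to respond to injury by detaching, dividing or taking on mesenchymal features. Because the pleura is a thin sheet on a large organ, its transcripts are a small part of whole-lung RNA. In such bulk samples fewer mesothelial cells and less RNA per cell cannot be told apart.

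The uroplakin genes Upk3b and Upk1b were lower in silicosis, at 0.464 and 0.505 of the control level, and Lrrn4 was lower at 0.528. Msln stood at 0.988 of the control level and Wt1 at 0.763, and neither passed the threshold, which does not show that they differed from the other 3 members. The threshold was an edgeR quasi-likelihood adjusted p under 0.05 over all tested mRNAs. So 3 of 5 members were called lower and 0 higher, where 16.5% of the 15808 tested mRNAs were called lower, 15.3% higher and 31.8% in either direction. All 5 members passed the filter on low counts. The median log2 fold change, silicosis over control, was -0.92 over the members and 0.025 over all tested mRNAs.

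Promoter sequences, 250 bases before to 50 bases after the gene start, were matched in RefSeq's table (GRCm38.p6) for 2 of the 5 members, Upk3b and Lrrn4. Both are shown because both genes were lower in silicosis. Capitals mark CATTCC, or GGAATG where it lies on the other strand, the core letters bound by TEAD factors, which are the DNA-binding partners of YAP.
Upk3b, chr5:136038246-136038545, plus strand: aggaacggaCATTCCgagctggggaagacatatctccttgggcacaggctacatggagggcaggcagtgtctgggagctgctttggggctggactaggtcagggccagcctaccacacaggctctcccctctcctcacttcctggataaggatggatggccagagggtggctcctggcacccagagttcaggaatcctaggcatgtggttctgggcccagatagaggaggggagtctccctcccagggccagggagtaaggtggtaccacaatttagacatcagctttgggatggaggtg
Lrrn4, chr2:132880813-132881112, minus strand: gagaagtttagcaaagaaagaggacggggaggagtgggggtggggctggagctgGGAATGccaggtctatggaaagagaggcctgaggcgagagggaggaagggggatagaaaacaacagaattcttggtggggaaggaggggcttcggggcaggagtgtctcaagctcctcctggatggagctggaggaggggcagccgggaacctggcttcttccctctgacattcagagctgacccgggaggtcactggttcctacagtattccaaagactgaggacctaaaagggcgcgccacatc

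Each of the 2 promoters held CATTCC once on either strand, as did 14.7% of the 32851 promoters in the table. The match began at position -241 in Upk3b and at position -196 in Lrrn4, counted from the gene start. The letters GTGGGNG, part of the sites of the zinc-finger proteins EGR1 and WT1, were found in Lrrn4 at position -217 and in 31.6% of all promoters. GATAAG, the GATA factor core, was found in Upk3b at position -106 and in 7.44% of all promoters. TATAAA and GGGCGG were found in neither window, and in 13.6% and 35.7% of all promoters. Matches were searched on both strands, did not overlap each other, and describe letters in the window, not binding. These motifs were chosen after the expression values were seen.

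Upk3b encodes a uroplakin, a membrane protein of the family best known from the urothelial plaques of the bladder, and is used as a marker of mesothelium in mouse lung. Its normalised count (CPM, counts per 1000000 of the library's TMM-corrected total) was 8.63, 11.4 and 17.1 in silicosis libraries N129, N136 and N138, against 28.9, 25.3 and 25.8 in control libraries C7, C8 and C9. All 3 silicosis libraries lay below all 3 control libraries. Upk3b averaged 12.4 ± 4.33 CPM in silicosis and 26.6 ± 1.95 CPM in control (SD, n = 3 each). The log2 fold change was -1.11 (SE 0.22, edgeR adjusted p = 0.00531).

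Upk1b encodes a tetraspanin uroplakin. It had 11.6, 11.4 and 16.8 CPM in N129, N136 and N138, against 27.5, 25.0 and 26.1 CPM in C7, C8 and C9. The groups again did not overlap, and the 3 control values lay within a narrow range. Upk1b averaged 13.2 ± 3.09 CPM in silicosis and 26.2 ± 1.30 CPM in control (SD, n = 3 each), a log2 fold change of -0.99 (SE 0.16, edgeR adjusted p = 0.00223). Upk3b and Upk1b were the members whose groups did not overlap, where 47.7% of all tested mRNAs showed no overlap.

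Lrrn4 encodes a single-pass membrane protein with leucine-rich repeats that was first described in the nervous system. It had 4.59, 5.64 and 10.7 CPM in N129, N136 and N138, against 15.8, 10.6 and 13.2 CPM in C7, C8 and C9. N138 lay just above C8, so the groups overlapped. Lrrn4 averaged 6.97 ± 3.26 CPM in silicosis and 13.2 ± 2.59 CPM in control (SD, n = 3 each), with a log2 fold change of -0.92 (SE 0.30, edgeR adjusted p = 0.0430). The call ended without N129, N136, C7, C8 or C9, with edgeR adjusted p of 0.121, 0.12, 0.135, 0.0534 and 0.0959. Without N138 the log2 fold change was -1.36.

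Msln encodes mesothelin, a lipid-anchored surface glycoprotein that binds the mucin Muc16. It had 15.4, 21.1 and 28.8 CPM in N129, N136 and N138, against 31.2, 19.6 and 15.2 CPM in C7, C8 and C9. The groups covered nearly the same range, and the control libraries differed from each other more than they did for either uroplakin gene. Msln averaged 21.8 ± 6.76 CPM in silicosis and 22.0 ± 8.27 CPM in control (SD, n = 3 each). The log2 fold change was -0.02, with a 95% interval of -0.66 to 0.62 (edgeR adjusted p = 0.971), so the data leave room for levels from 0.633 to 1.54 of control. The estimate was 0.18 without N129 and 0.32 without C7.

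Wt1 encodes a zinc-finger transcription factor of the mesothelium and of kidney podocytes. It had the fewest counts of the members, between 64 and 161 counts per library. It had 1.67, 1.56 and 3.78 CPM in N129, N136 and N138, against 2.83, 2.13 and 4.20 CPM in C7, C8 and C9. N138 lay above C7 and C8, and the groups overlapped. The log2 fold change was -0.39 with a 95% interval of -1.30 to 0.52 (edgeR adjusted p = 0.493). It was -0.92 without N138 and -0.09 without C9.

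**Figure D1:**
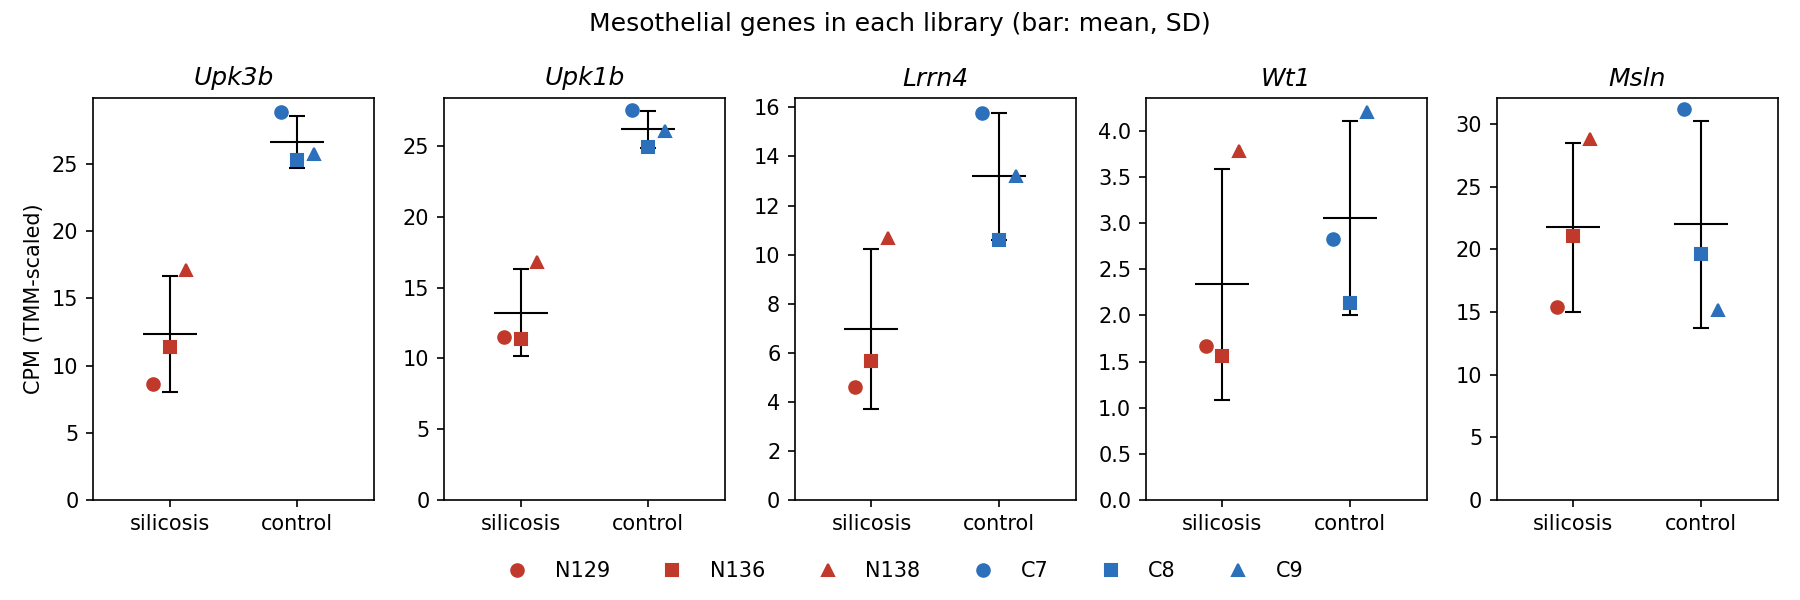
Normalised counts (CPM, vertical axes starting at 0) of the 5 mesothelial genes in silicosis and control libraries. Points are libraries, horizontal bars are means and whiskers are SD (n = 3 each). Upk3b and Upk1b do not overlap between groups, where 47.7% of all tested mRNAs show no overlap. Msln spans 15.4 to 28.8 CPM in silicosis and 15.2 to 31.2 CPM in control.

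Among silicosis libraries N138 held the highest value of each of the 5 members. The summed level of the 5 genes was 41.8, 51.0 and 77.2 CPM in N129, N136 and N138, against 106, 82.6 and 84.4 CPM in C7, C8 and C9. Among control libraries C7 was highest for Upk3b, Upk1b, Lrrn4 and Msln and C9 for Wt1. Over the 6 libraries log2 CPM of Upk3b had a Pearson correlation of 0.979 with Upk1b and 0.965 with Lrrn4, but of 0.345 with Msln. These values describe 6 libraries and hold the group difference. With each group's mean taken away they were 0.903, 0.954 and 0.772.

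Per kilobase of exon (lengths from GENCODE M21 on GRCm38, which may differ from the authors' annotation), mean levels in silicosis ran Msln at 7.10 ± 2.21 CPM per kb, Upk1b at 6.34 ± 1.48, Upk3b at 3.50 ± 1.23, Lrrn4 at 1.88 ± 0.877 and Wt1 at 0.377 ± 0.202 (SD, n = 3). In control they ran Upk1b at 12.5 ± 0.622 CPM per kb, Upk3b at 7.54 ± 0.552, Msln at 7.18 ± 2.70, Lrrn4 at 3.55 ± 0.696 and Wt1 at 0.493 ± 0.170 (SD, n = 3). In silicosis Msln and Upk1b, and also Upk3b and Lrrn4, were neighbours that did not differ beyond their spread. In control this held for Upk3b and Msln.

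Whether the members changed unequally was asked through ratios within a library, which do not depend on how libraries are scaled. The ratio of Msln to Upk3b counts was 1.78, 1.86 and 1.68 in N129, N136 and N138, against 1.08, 0.776 and 0.590 in C7, C8 and C9. Every silicosis library lay above every control library, and the ratio was 2.24-fold higher in silicosis. The ratio of Msln to Upk1b was 1.33, 1.86 and 1.72 in silicosis, against 1.13, 0.786 and 0.583 in control, 2.01-fold higher. The ratio of Msln to Lrrn4 was 3.35, 3.74 and 2.70 in silicosis, against 1.98, 1.85 and 1.15 in control, 2.001-fold higher. These 3 of 10 pairs had no overlap between groups, each with p = 0.1 by a two-sided exact permutation test. That is the smallest value that 3 against 3 allow, and it was 0.333 after Benjamini-Hochberg adjustment over the 10 pairs. The 3 pairs share the Msln counts, so they are not 3 independent results. The share of ratios without overlap among other pairs of mRNAs was not computed. No pair can pass 0.05 with this exact test at 3 libraries a group, so an unequal change of the members was not established by it.

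The other 7 ratios overlapped between groups. The ratio of Msln to Wt1 was 9.20, 13.5 and 7.62 in silicosis, against 11.02, 9.21 and 3.62 in control. Lrrn4 to Upk1b, both lower in silicosis, differed by 0.01 on the log2 scale, and Upk1b to Upk3b by 0.15. Msln made up 36.7%, 41.3% and 37.3% of the members' summed CPM in N129, N136 and N138, against 29.4%, 23.8% and 18.0% in C7, C8 and C9.

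**Figure D2:**
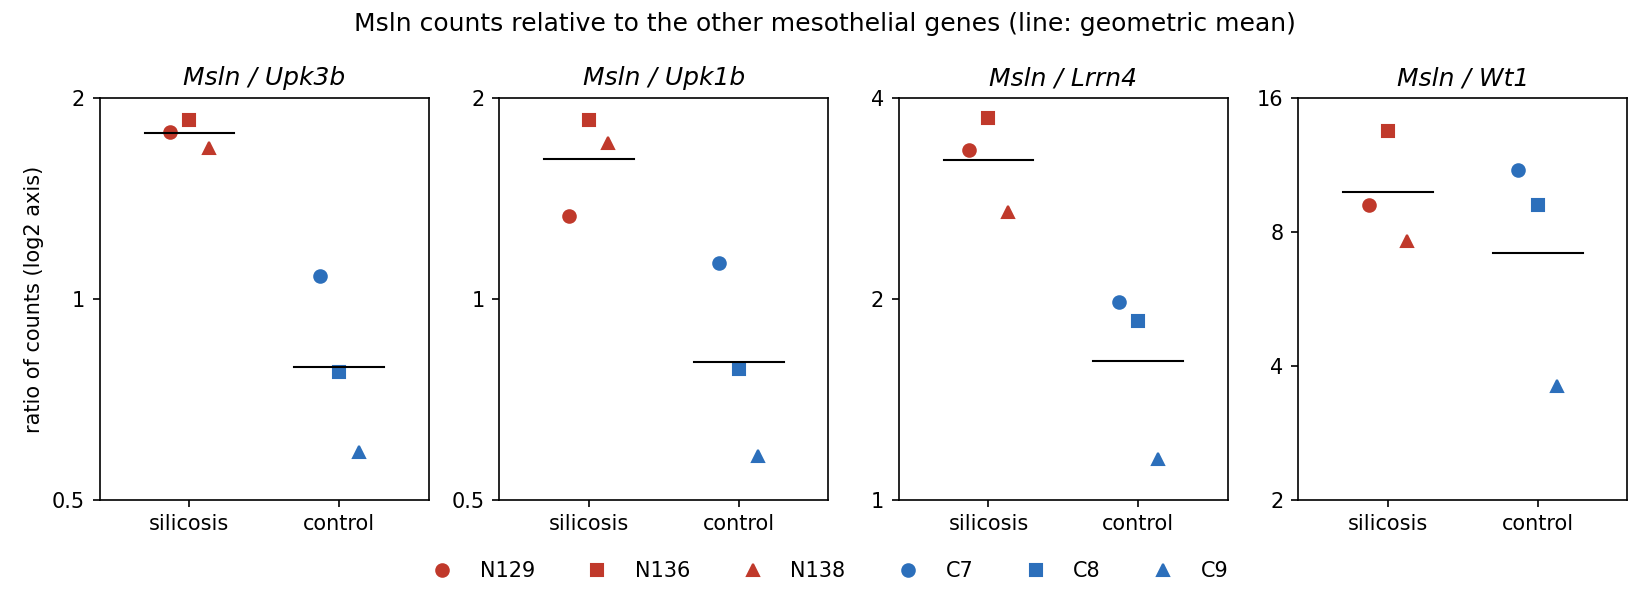
Ratio of Msln counts to those of Upk3b, Upk1b, Lrrn4 and Wt1 within each library (log2 vertical axes, which differ between panels). Points are libraries and lines are geometric means of the 3 silicosis and 3 control libraries; the first 3 ratios do not overlap between groups, and the ratio to Wt1 does.

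Of 10 further mesothelial genes, 9 were tested, of which 2 fell, 0 rose and 7 did not pass. This is near the share over all tested mRNAs, of which 16.5% were called lower and 15.3% higher, the background for each gene list that follows. The median log2 fold change of the 9 genes was -0.32. Nkain4, whose product interacts with the sodium pump, had 5.24, 5.62 and 7.48 CPM in N129, N136 and N138, against 11.6, 10 and 11.6 CPM in C7, C8 and C9. Rspo1, a secreted enhancer of Wnt signalling, had 4.85, 5.67 and 5.37 CPM in silicosis, against 10.98, 9.43 and 9.34 CPM in control. Neither gene overlapped between groups, where 47.7% of all tested mRNAs showed no overlap. The log2 fold changes were -0.85 for Nkain4 (SE 0.18, edgeR adjusted p = 0.00667) and -0.90 for Rspo1 (SE 0.16, edgeR adjusted p = 0.00287). An antisense gene overlaps each of them in GENCODE M21, and without a stated strand setting reads of such partners cannot be told apart.

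The 3 further genes with the highest mean CPM did not pass. Gpm6a, a membrane glycoprotein shared with neurons, averaged 38.1 ± 5.15 CPM in silicosis and 43.3 ± 7.02 CPM in control (SD, n = 3 each). Muc16, the mucin that binds mesothelin, averaged 34.0 ± 7.93 CPM in silicosis and 34.8 ± 6.76 CPM in control (SD, n = 3 each). Its log2 fold change was -0.03 with a 95% interval of -0.45 to 0.39, close to the -0.02 of Msln. Aldh1a2, which makes retinoic acid, had 7.69, 8.49 and 15.4 CPM in N129, N136 and N138, against 14.8, 13.3 and 15.2 CPM in C7, C8 and C9. Its log2 fold change of -0.46 was not called, and it was -0.83 without N138 (edgeR adjusted p = 0.00371).

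The remaining further genes, Bnc1, Cldn15, Prg4 and Lrrn4cl, had log2 fold changes between -0.50 and 0.51 and did not pass. Prg4, which encodes the lubricant lubricin and was singled out after its values were seen, had 10.2 CPM in C9 against 2.53 and 2.03 CPM in C7 and C8, and its log2 fold change was 0.60 without C9. Calb2, which encodes the mesothelial marker calretinin, was not tested, since it had 2, 4 and 0 counts in N129, N136 and N138, against 0, 4 and 0 counts in C7, C8 and C9. A mesothelial marker known from human pleura was thus at or near 0 in these whole-lung libraries, while the other 9 were detected in each library.

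**Figure D3:**
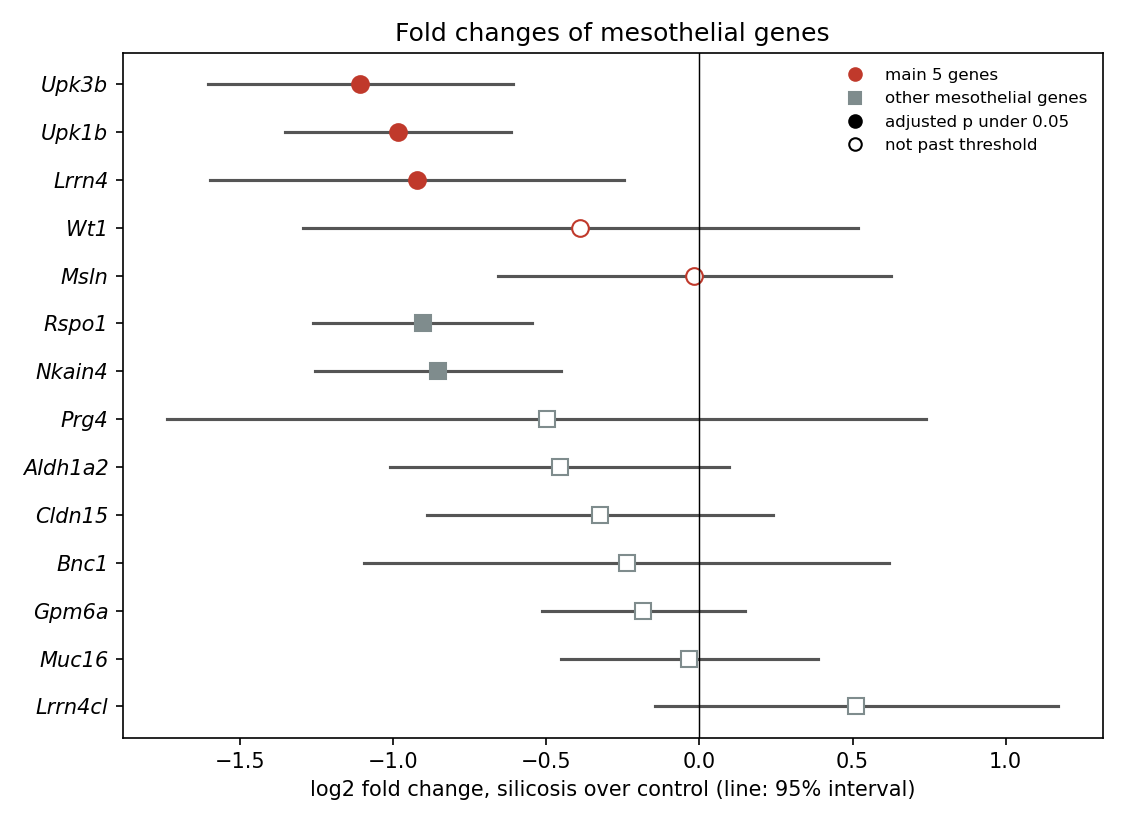
Log2 fold changes, silicosis over control, with 95% intervals for the 5 mesothelial genes (red circles) and 9 further mesothelial genes (grey squares). Filled symbols passed an adjusted p under 0.05: Upk3b, Upk1b, Lrrn4, Rspo1 and Nkain4, all lower in silicosis.

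Wt1os, the long non-coding RNA transcribed away from the Wt1 start on the opposite strand, was counted in the lncRNA table. It had 8, 0 and 11 counts in N129, N136 and N138, against 2, 0 and 11 counts in C7, C8 and C9, too few to be among the 3320 lncRNAs tested. N138 and C9, the highest silicosis and control libraries for Wt1, were also the highest for Wt1os. In GENCODE M21 the exons of the pair lie side by side without overlap.

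Of 10 relatives of the members by sequence family, 7 were tested, of which 1 fell and 0 rose. Lrrn3, a leucine-rich repeat gene related to Lrrn4, had 10.8, 8.03 and 10.7 CPM in silicosis, against 20.6, 17.5 and 19.9 CPM in control (log2 fold change -0.97, edgeR adjusted p = 0.00176). The bladder uroplakins Upk1a and Upk2, singled out after their values were seen, were below 2 CPM in all 6 libraries and did not pass.

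Genes linked to Wt1 in development or as partners went both ways: of 14 tested, 4 fell, 1 rose and 9 did not pass. Basp1, a corepressor of Wt1, had 33.8, 36.0 and 25.9 CPM in silicosis, against 10.2, 12.7 and 13.1 CPM in control (log2 fold change 1.41, edgeR adjusted p = 0.000343). Tcf21 and Snai1, transcription factors that lung fibroblasts also express, fell by 1.78 and 1.22 on the log2 scale. Of 14 tested retinoid genes 5 fell, 2 rose and 7 did not pass. The retinoic acid receptor gene Rarg was among those that fell (log2 fold change -0.76, edgeR adjusted p = 0.00097). Without N129, C7 or C8 the retinoid genes called lower were 3, and without N129, N136, N138 or C9 those called higher were 1.

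Genes of mesenchymal transition, a change described for injured mesothelium, were also mixed: of 10 tested, 4 fell, 1 rose and 5 did not pass. Snai1, Snai2 and Zeb1, regulators that repress epithelial genes, fell, while Fn1, fibronectin, singled out after its values were seen, rose (log2 fold change 0.53, edgeR adjusted p = 0.00691). Zeb1 averaged 123 ± 5.77 CPM in silicosis and 215 ± 17.3 CPM in control (SD, n = 3 each). These are also genes of fibroblasts and other cells of the lung.

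Of 8 genes shared by mesothelium and lung epithelium, 3 fell, 1 rose and 4 did not pass. Krt7, a simple-epithelium keratin, had 121, 133 and 116 CPM in silicosis, against 238, 270 and 244 CPM in control (log2 fold change -1.02, edgeR adjusted p = 0.000152). Slpi, a secreted protease inhibitor of airway epithelium and leukocytes, rose by 2.99. Krt19, another keratin of simple epithelia, fell by 0.47. Without N129, C8 or C9 the genes called lower were 1.

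Markers of other lung cells moved in the same libraries. Of 8 alveolar type 1 genes 7 fell, and of 6 resting fibroblast genes 6 fell. Of 6 endothelial genes 6 fell, or 4 without N129, C7 or C8. Median log2 fold changes were -0.81 for alveolar type 1, -0.80 for endothelial and -1.67 for resting fibroblast genes, beside -0.92 for the 5 mesothelial genes. For the 9 further mesothelial genes tested the median was -0.32, so the mesothelial value depends on the markers taken. Of 5 macrophage genes 4 rose, or 1 without C7 and 2 without C8, and of 4 basal cell keratin and p63 genes 4 rose. The summed level of the 5 macrophage genes was 5435 to 9891 CPM in silicosis and 3140 to 3718 CPM in control. Most of this sum was a single gene, Lyz2, with 4960 to 9366 CPM in silicosis and 2791 to 3339 CPM in control. Of 6 alveolar type 2 genes 1 fell, or 0 without N129, C7, C8 or C9, and 0 rose. Of 5 smooth muscle genes 4 fell, or 2 without N136, of 7 club and ciliated cell genes 2 fell, or 4 without N138, and of 6 adventitial fibroblast genes 1 fell, or 2 without N136. Of 3 genes listed for serosal cavity macrophages 2 fell, or 1 without N129 or C8. The 2 that fell were Gata6 and Icam2 (log2 fold changes -0.41 and -0.84), whereas Timd4 did not pass (0.29). Which lung cells the transcripts of these 3 genes came from was not tested. CPM is relative to all counts of a library, and the part of these other cells in the mesothelial values was not tested.

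**Figure D4:**
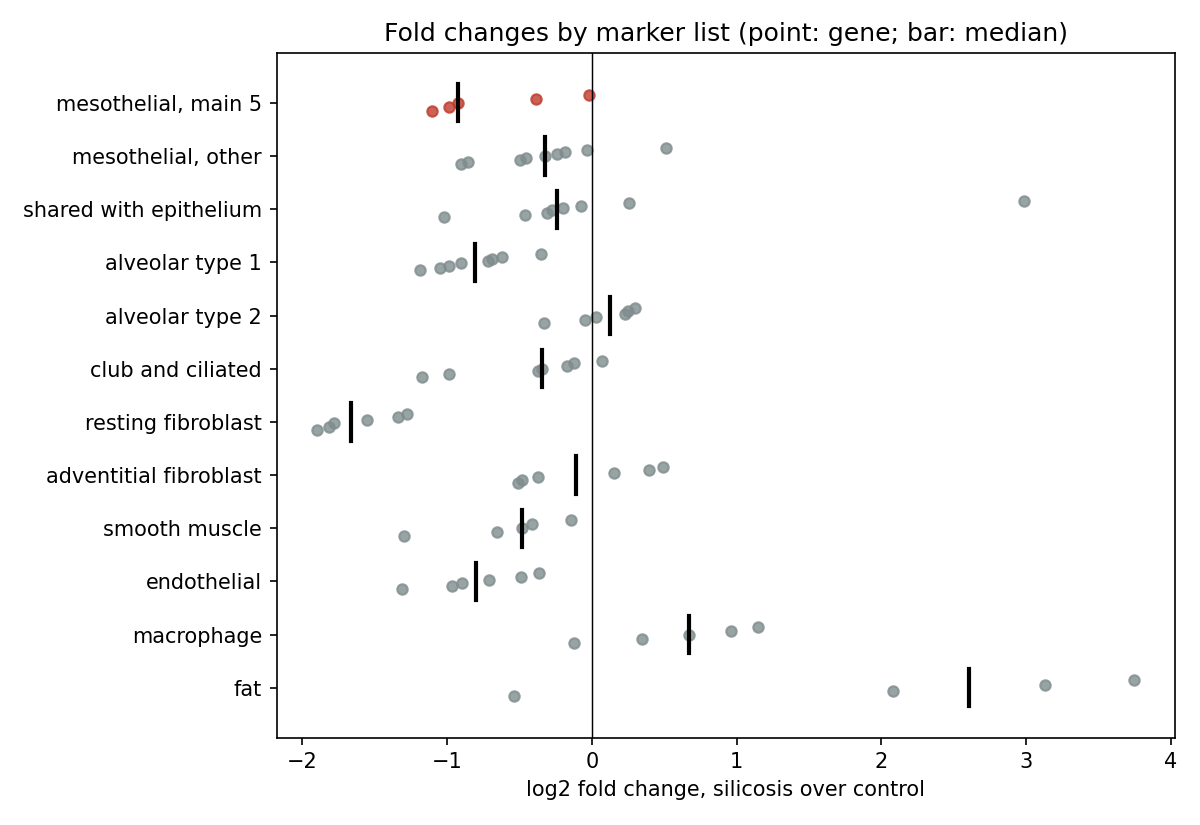
Log2 fold changes, silicosis over control, of each tested gene in 12 marker lists (points) with the list median (bar); the 5 mesothelial genes are red. The median of -0.92 for these 5 lies near those of the alveolar type 1 (-0.81) and endothelial (-0.80) lists, and resting fibroblast genes lie lower (-1.67). The 9 further mesothelial genes have a median of -0.32.

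Fat, skeletal muscle and heart muscle genes were also present in unequal amounts, and the tissue they came from was not tested. Of 4 tested fat genes 3 rose, and the adipocyte hormone Adipoq had 15.8, 7.68 and 5.06 CPM in N129, N136 and N138, against 0.248, 0.479 and 1.41 CPM in C7, C8 and C9. The 5 fat genes summed to 18.4 to 54.0 CPM in silicosis and 10.6 to 15.5 CPM in control, and Ucp1 was at 0 in every control library. The 5 skeletal muscle genes summed to 5.11 to 103 CPM in silicosis and 3.90 to 7.23 CPM in control, and Myh4 was at 0 in the controls and N129. The 5 heart muscle genes summed to 66.1 to 132 CPM in silicosis and 78.6 to 256 CPM in control. How much pleura, fat or muscle was taken with each lung is not given in the labels, and its part in the results was not tested.

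The genes whose log2 CPM over the 6 libraries was most like the members' mean were Proca1, Zfp551, Hykk, Cnih2 and Fras1, with Pearson correlations of 0.994, 0.992, 0.991, 0.984 and 0.982. None of these 5 passed the edgeR threshold. Of 14065 genes compared, 64 had a correlation of at least 0.95 over these 6 libraries. With group means taken away, the most alike were Supt3, Pfkm, Glp1r, Hp1bp3 and Fras1, at 0.994 to 0.998, and 92 genes reached 0.95. With group means kept, Supt3 had 0.173, and Pfkm, Glp1r, Hp1bp3 and Fras1 had 0.932, 0.891, 0.89 and 0.982. Among so many genes, 6 libraries allow correlations this high by chance on either measure. How many would arise so was not computed, so likeness to the mesothelial genes is not established. The 9 further mesothelial genes tested were spread widely on both measures. Over the 6 libraries their correlations with the members' mean ran from -0.224 for Lrrn4cl and 0.183 for Prg4 to 0.947 for Cldn15 and 0.967 for Aldh1a2. Within groups they ran from 0.174 for Prg4, 0.428 for Lrrn4cl and 0.456 for Rspo1 to 0.978 for Nkain4 and 0.986 for Bnc1.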

How the data were processed

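Per the labels, RNA came from whole lung. Tools listed, without roles, in the submitters' processing notes are featureCounts 2.0.0, HISAT2, Bowtie2, Trimmomatic 0.39 and DESeq2 1.36.0, and the genome listed is GRCm39. The strand setting and annotation used for counting are not given in these sources. The deposited tables hold the authors' raw counts per gene and library. The authors' deposited comparison table gives log2 fold changes and p-values; for Upk3b its log2 fold change was -1.12 (adjusted p-value 5.97e-06) and for Lrrn4 -0.93 (0.00626).

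The 6 mRNA libraries held 33698920 to 44000748 counts. The fit used edgeR 4.0.16 in R 4.3.3 with filterByExpr, which kept 15808 of 17973 mRNAs, TMM factors, the two-sided quasi-likelihood F test and Benjamini-Hochberg adjustment over all tested mRNAs at 0.05. SE is the log2 fold change divided by the root of F, and CPM uses TMM-scaled totals. Libraries of a group were distinct (chi-square per degree of freedom 15.0 to 79.0). Members and lists were chosen with earlier results of these data known. Named genes are the members and all further mesothelial genes. Levels are given for further genes that were called or had the 3 highest mean CPM, and counts for the untested Calb2. At most 3 genes of each other list, and the 5 genes most like the members' mean whose mean log2 CPM was 0 or more, are also named. Beside these, the levels of Prg4 and the genes Upk1a, Upk2, Fn1, Timd4, Ucp1 and Myh4 were singled out after their values were seen. Windows of 50 bases of the members' longest GENCODE M21 transcripts were found in 0 other genes. On simulated counts of 15808 mRNAs, the test recovered 78% of 100 genes with a 2-fold change and 100% of 100 with a 4-fold change. Of its calls, 7.29% were unchanged genes. Only these 200 genes were changed in the simulation, whereas 31.8% of tested mRNAs were called in the data. The recovered shares are therefore not the power of the real comparison. Alternatives were limma-voom (limma 3.58.1), DESeq2 1.42.0, its size factors in edgeR, no filter, a 2-fold minimum, a prior count of 2 for ratios, and each library left out. Intervals are at 95%. The circRNA tables were not used here.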

Additional observations from a re-analysis of the deposited data

How the results depend on the processing

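With DESeq2 size factors, no filter, DESeq2 or limma-voom, the 5 mesothelial genes kept their direction and their side of the threshold, and the median log2 fold change of all genes moved by less than 0.1. With a minimum of 2-fold, 1 of the 3 members called lower and 0 of the 2 further genes remained. Leaving out each library in turn, log2 fold changes ran from -1.41 to -0.91 for Upk3b, -1.19 to -0.89 for Upk1b, -1.36 to -0.70 for Lrrn4, -0.92 to -0.09 for Wt1 and -0.27 to 0.32 for Msln, whose sign turned. Members called lower were 2 to 3, and further mesothelial genes called lower 2 to 3. Signs also turned for Bnc1 (-0.74 to 0.0075), Muc16 (-0.24 to 0.13) and Prg4 (-0.87 to 0.60). Aldh1a2 ran from -0.83 to -0.28. On the log2 scale the ratio of Msln to Upk3b ran from 0.95 to 1.39, to Upk1b from 0.78 to 1.26, to Lrrn4 from 0.76 to 1.15 and to Wt1 from -0.037 to 0.77, and Lrrn4 to Upk1b from -0.16 to 0.18. The causes were not tested. Genes called lower ran from 1 to 3 for those shared with epithelium, 3 to 5 for retinoid and 1 to 2 for the members' families. Genes called higher ran from 1 to 5 for skeletal muscle and 1 to 4 for macrophages. With limma-voom 0 skeletal and 0 heart muscle genes were called, against 2 and 1. No paired analysis was possible because the groups share no replicate numbers. The Wt1os alternatives could not be compared because that gene did not pass the filter; with no filter edgeR gave it a log2 fold change of 0.39 (SE 0.98, adjusted p = 0.917). Wt1 had 64 to 161 counts per library, which limits its precision.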
